A study of Mus musculus with 8 samples.

Results

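The genes of the urea cycle and of arginine exchange between organs were examined across 4 mouse tissues. The set held 9 genes, of the 52195 genes in the table. It was chosen by name from knowledge of the pathway and with earlier results of these data known. The 7 described here are Cps1, Otc, Ass1, Asl, Nags, Slc25a15 and Glul, and counts and sums below are over these 7. Each of the 7 symbols was found with a single gene in the annotation, and all 7 passed the filter on low values. The tissues were liver, small intestine, lung and kidney of male C57BL/6J mice (strain C57BL/6 in the sample labels) aged 6 to 10 weeks, with no allele or treatment named for any of them. Each tissue was represented by 2 libraries from separate mice, 8 in all, and several tissues were taken from each mouse. Whole organs were washed, ground in liquid nitrogen and used for polyadenylated RNA, so that every library mixes the cell types of its organ.

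Levels are given as FPKM, the number of fragments on a gene corrected for the length of all its exons and for the size of the library. The deposited levels move in steps of whole reads, which gave a depth of 9164187 reads on genes in the shallowest library, liver replicate 1, and 21444675 in the deepest, kidney replicate 1. A count of 3 reads on 1 kb of exons corresponded to 0.140 to 0.327 FPKM, depending on the library, and this floor covers counting error only. The tissue labels matched their markers: 6 of 6 hepatocyte genes were highest in liver, 5 of 5 proximal tubule genes in kidney, 5 of 5 enterocyte and 3 of 3 intestinal crypt genes in small intestine, and 4 of 4 lung epithelial genes in lung. The small intestine libraries also held pancreatic acinar genes, whose summed level over 8 genes was 2733 FPKM in replicate 1 and 1258 in replicate 2, against 0.777 to 5.80 in the other 6 libraries, and the part of these cells in the small intestine levels was not tested.

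Differences between tissues were tested with limma, which fits a linear model to every gene and borrows the spread from all genes, so that its p-values measure the spread between these libraries. The scale was log2(FPKM + 1). A gene was called where the p adjusted over all 16328 genes tested was under 0.05 and the log2 difference was over 1 in size. As alternatives, median-of-ratios scaling set the typical gene to the same level in every library, and quantile normalization gave all libraries the same distribution of values.

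The urea cycle turns ammonia, which is toxic, into urea, and in mammals it runs in full in hepatocytes. Ammonia enters in the mitochondrion, where carbamoyl phosphate is made and joined to ornithine to give citrulline. In the cytosol citrulline is joined to aspartate, and the product is split into fumarate and arginine, from which urea is released and ornithine is regained. The same enzymes serve another route in which enterocytes release citrulline into the blood and the proximal tubule of the kidney turns it into arginine for the rest of the body. Glutamine synthetase, encoded by Glul, is the other main way of binding ammonia, and in liver it is confined to the hepatocytes around the central vein.

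The RefSeq promoter table matched 5 of the 7 members, all but Cps1 and Asl. Those of Otc, Nags, Ass1 and Glul are shown because they stand for different tissue patterns: Otc and Nags were high in liver and small intestine, Ass1 in liver and kidney, and Glul in every tissue but the small intestine. The bases are given 5′ to 3′ from RefSeq on the build GRCm38.p6, all on the plus strand. Those of Otc, Nags and Ass1 run up to the start of the gene in the GENCODE annotation, and those of Glul end 15 bases before it. Capitals mark the letters CCAAT.
Otc, chrX:10252055-10252304: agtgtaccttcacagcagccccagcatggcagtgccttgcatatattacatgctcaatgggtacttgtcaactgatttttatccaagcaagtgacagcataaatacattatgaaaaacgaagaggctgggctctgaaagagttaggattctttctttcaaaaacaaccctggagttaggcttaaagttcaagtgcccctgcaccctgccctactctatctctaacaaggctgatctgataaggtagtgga
Nags, chr11:102145263-102145512: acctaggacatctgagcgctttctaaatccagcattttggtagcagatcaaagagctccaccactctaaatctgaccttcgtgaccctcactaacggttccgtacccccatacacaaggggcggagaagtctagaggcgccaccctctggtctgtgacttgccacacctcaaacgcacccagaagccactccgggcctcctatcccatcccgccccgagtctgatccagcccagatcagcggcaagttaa
Ass1, chr2:31470020-31470206: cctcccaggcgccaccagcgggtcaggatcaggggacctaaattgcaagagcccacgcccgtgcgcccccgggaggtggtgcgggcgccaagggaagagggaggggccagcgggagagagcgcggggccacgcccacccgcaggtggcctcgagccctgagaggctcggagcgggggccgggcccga
Glul, chr1:153899679-153899928: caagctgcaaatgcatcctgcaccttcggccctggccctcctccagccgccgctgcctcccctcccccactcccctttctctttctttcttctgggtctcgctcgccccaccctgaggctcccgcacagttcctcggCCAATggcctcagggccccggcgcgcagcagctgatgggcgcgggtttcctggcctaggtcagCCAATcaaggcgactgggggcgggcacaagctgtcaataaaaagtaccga

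The stretches differed in base composition. G and C made up 43.6% of the 250 bases of Otc, and 20.1% of all promoters in the RefSeq table had a lower share. For Nags the share was 55.6% (60.1% of promoters lower), for Glul 64.8% (82.3% lower) and for the 187 bases of Ass1 75.4% (96.4% lower). Otc and Nags, both high in liver and small intestine, were thus apart in composition. Both strands were searched for the TATA box TATAAA, the CAAT box CCAAT, the C/EBP-type motif TTGCNNAA, the cyclic AMP element TGACGTCA, the part of the glucocorticoid receptor site TGTTCT and the HNF4-type motif TGGACTTTG, none of which contains another. The search found CCAAT in Glul, beginning 113 and 50 bases from the end of the stretch shown, and no match of any searched motif in Otc, Nags or Ass1. CCAAT occurred in 33.8% of all 32851 promoters in a window of 250 bases and in 26.2% in one of 187 bases. In 250 bases, TGTTCT occurred in 16.1% of promoters, TATAAA in 12.4%, TTGCNNAA in 9.56%, TGACGTCA in 1.55% and TGGACTTTG in 0.384%. A match is a description of the letters only.

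The tissues differed in both the amount and the make-up of the 7 genes. Their summed level was 1878 and 1580 FPKM in the liver libraries, 996 and 982 in kidney, 196 and 188 in small intestine and 93.6 and 67.0 in lung. In liver, Ass1 held on average 50.4% of the sum, Cps1 28.7%, Otc 8.89% and Asl 5.69%. In small intestine the order was another, with Cps1 at 41.8%, Otc at 27.97%, Slc25a15 at 15.8% and Nags at 7.21%. Ass1 alone held 89.2% of the sum in kidney, followed by Glul with 5.48% and Asl with 3.49%. Glul took 70.4% in lung, where Ass1 held 19.0% and Asl 6.52%. These shares are of levels per length of all exons, and their order depends on that length. With the length of the principal transcript instead, the ratio of Otc to Cps1 was 1.23 in small intestine, which puts Otc above Cps1 there. In such whole-organ libraries fewer cells of a type and less RNA per cell cannot be told apart.

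**Figure D1:**
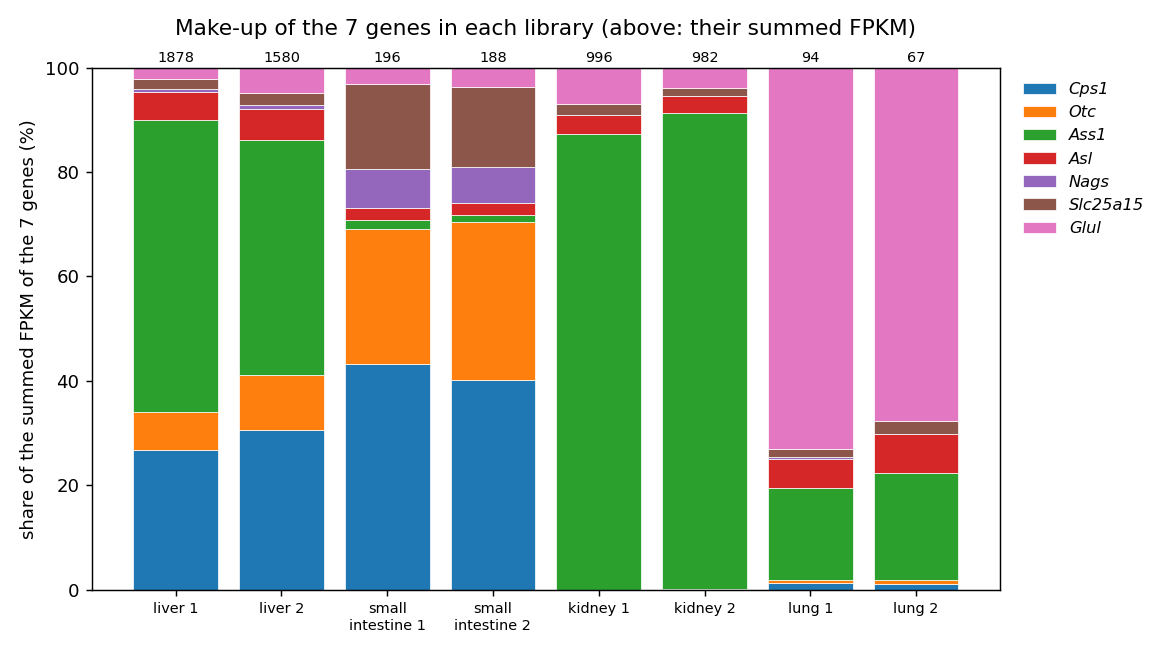
Stacked bars show the share of each of the 7 genes in their summed FPKM (%) for each of the 8 libraries, with the sum in FPKM above each bar. The liver bars are led by Ass1 and Cps1, the small intestine bars by Cps1 and Otc, the kidney bars by Ass1 and the lung bars by Glul, in both libraries of each tissue.

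The enzymes of the mitochondrial entry into the cycle were high in liver and small intestine and at most at 1.14 FPKM in kidney and lung. Cps1 (GRCm38 chromosome 1, 67123026 to 67231259, plus strand) encodes carbamoyl phosphate synthetase, the enzyme that fixes ammonia. Its level was 501 and 485 FPKM in liver, 85.0 and 75.7 in small intestine, 1.14 and 0.797 in lung, and 0.185 and 0.884 in kidney. Liver and small intestine overlapped neither with each other nor with the rest, while the kidney and lung values overlapped. Liver held 85.8% of the sum of the 4 tissue means. On the log2(FPKM + 1) scale Cps1 was higher in liver than in small intestine by 2.60 (SE 0.23, limma adjusted p = 4.89e-05) and higher in small intestine than in lung by 5.37 (SE 0.23, adjusted p = 1.38e-06). Between kidney and lung the difference of -0.39 (SE 0.23) did not pass the test (adjusted p = 0.156). That difference was -0.0587 without kidney replicate 1 and -0.73 without kidney replicate 2.

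Otc (chromosome X, 10252305 to 10321024, plus strand) encodes ornithine transcarbamylase, which makes citrulline. It was at 137 and 166 FPKM in liver, 50.6 and 56.8 in small intestine, 0.555 and 0.512 in lung, and 0.0330 and 0.341 in kidney. The lowest of these rested on 3 reads. The order of the tissues was that of Cps1, again with no overlap between liver, small intestine and the rest, and liver held 73.5% of the sum of means. The step from liver to small intestine was 1.47 on the log2(FPKM + 1) scale (SE 0.19, limma adjusted p = 3.61e-04), smaller than that of Cps1 in the values, though the difference between the genes was not tested. Within a library the ratio of Otc to Cps1 was 0.307 ± 0.0488 (SD, n = 2) in liver and 0.673 ± 0.110 in small intestine. These ratios, taken with the length of the principal transcript in place of that of all exons, became 0.562 and 1.23, so that their order between the tissues held while their size depended on the length used.

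Nags (chromosome 11, 102145513 to 102149477, plus strand) makes N-acetylglutamate, without which the Cps1 enzyme is inactive. Its level was 10.7 and 12.6 FPKM in liver and 14.8 and 12.9 in small intestine. Lung values were 0.253 and 0.0567, from 7 and 2 reads. In kidney Nags was at 0 and 0.0204 FPKM, from 0 and 1 reads, and 3 reads would have given 0.0493 and 0.0611 FPKM. Liver and small intestine stood apart from kidney and lung but not from each other in the test, with a difference of -0.24 (SE 0.18, limma adjusted p = 0.308) on the log2(FPKM + 1) scale. Scaling by the median of ratios turned that difference to 0.58 (adjusted p = 0.0121, still under the threshold of 1 on the log2 difference). Relative to Cps1, Nags was at 0.0236 ± 0.00330 (SD, n = 2) in liver and 0.173 ± 0.00223 in small intestine, 2 pairs of ratios that did not overlap. An exon of Gm11586 on the other strand overlaps 15.6% of the exon length of Nags.

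Slc25a15 (chromosome 8, 22375551 to 22398597, minus strand) is the mitochondrial carrier that exchanges ornithine for citrulline. It was the member spread most evenly over liver, small intestine and kidney, at 36.3 and 38.0 FPKM in liver, 31.8 and 29.0 in small intestine, 20.3 and 14.2 in kidney, and 1.44 and 1.63 in lung. The tissues did not overlap, but liver and small intestine differed by only 0.28 (SE 0.19, limma adjusted p = 0.235) on the log2(FPKM + 1) scale, and by 1.13 (adjusted p = 0.000453) after median-of-ratios scaling. The difference between liver and kidney was 1.08 (SE 0.19, adjusted p = 0.00284), just over the threshold of 1, and 0.84 without kidney replicate 2. In kidney the carrier was thus measured at 17.3 ± 4.35 FPKM (SD, n = 2) where Otc, whose product it carries, was at 0.187 ± 0.217.

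**Figure D2:**
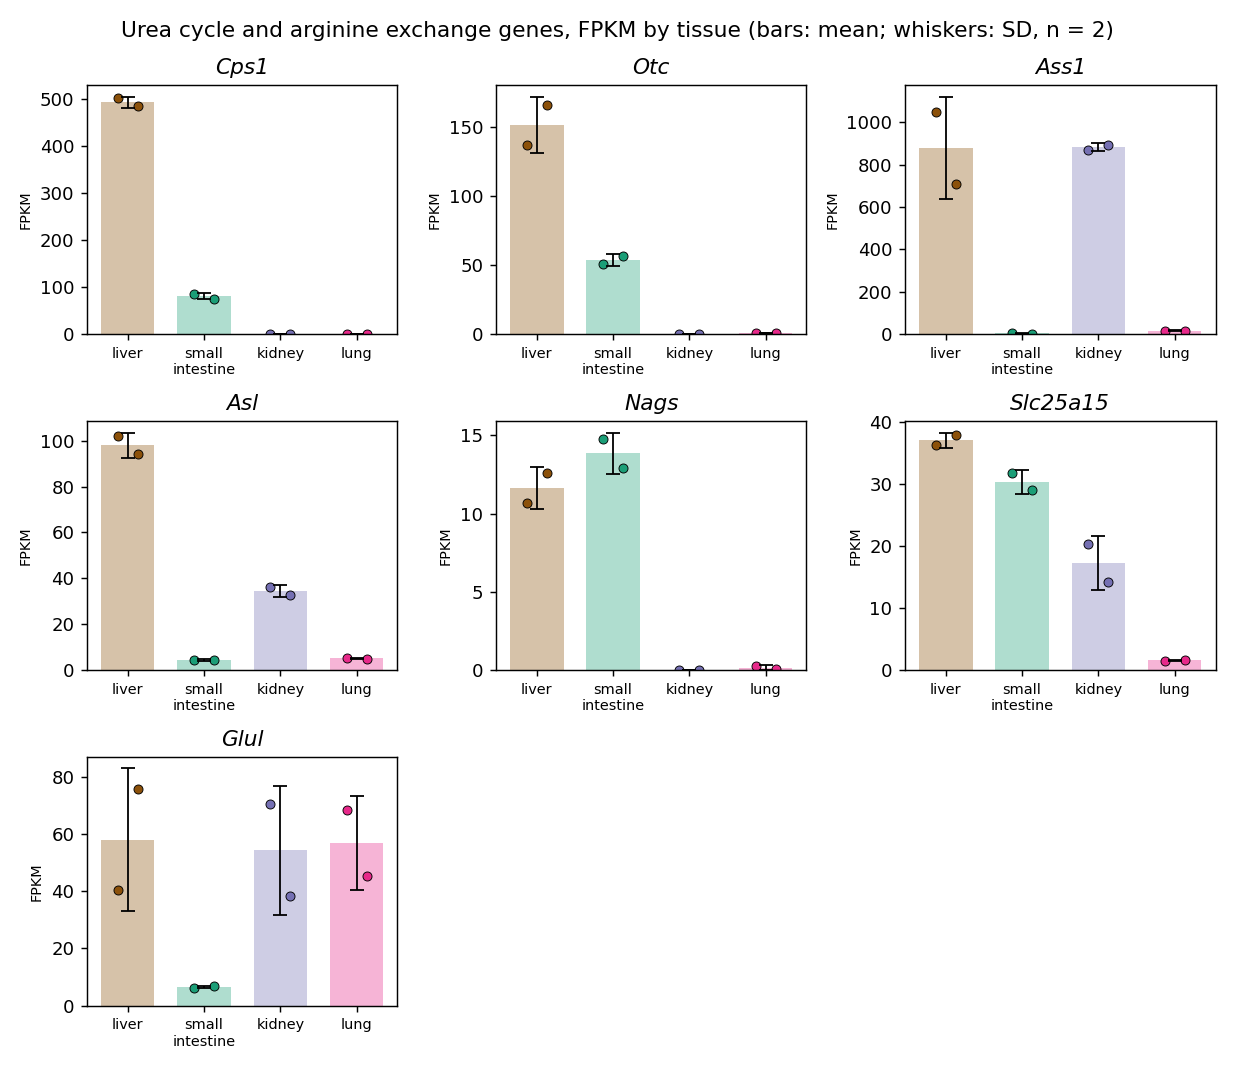
Each panel shows 1 gene, with bars for the mean FPKM of each tissue (linear axis from 0), whiskers for the SD (n = 2) and points for the libraries. Cps1, Otc and Asl peak in liver, Ass1 has means of 879.7 FPKM in liver and 882.2 in kidney, Nags is high in liver and small intestine, Slc25a15 is lowest in lung, and Glul is lowest in small intestine.

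The cytosolic enzymes that make arginine from citrulline followed another order. Ass1 (chromosome 2, 31470207 to 31520672, plus strand) encodes argininosuccinate synthetase. It stood at 869 and 895 FPKM in kidney and 1050 and 709 in liver, against 16.5 and 13.7 in lung and 3.32 and 2.74 in small intestine. Kidney lay inside the liver range, and the difference of -0.03 (SE 0.21) between liver and kidney did not pass the test (limma adjusted p = 0.942). That difference turned to 0.52 (adjusted p = 0.249) under median-of-ratios scaling and became -1.53 (adjusted p = 0.00083) under quantile normalization, so that the order of liver and kidney was not settled. Against small intestine, liver was higher by 7.75 (SE 0.21, adjusted p = 1.54e-07) and kidney by 7.78 (adjusted p = 3.68e-07), and lung was higher than small intestine too, by a small intestine minus lung difference of -1.996 (adjusted p = 9.47e-05). The small intestine therefore held the lowest Ass1 level of the tissues, beside the second highest levels of Cps1 and Otc.

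Asl (chromosome 5, 130011258 to 130029247, minus strand) encodes argininosuccinate lyase, which completes arginine. Its level was 102 and 94.0 FPKM in liver, 36.3 and 32.7 in kidney, 5.30 and 4.95 in lung and 4.53 and 4.17 in small intestine. No tissue overlapped with another, and liver held 69.0% of the sum of means. Liver exceeded kidney by 1.48 on the log2(FPKM + 1) scale (SE 0.14, limma adjusted p = 1.16e-04) and kidney exceeded small intestine by 2.73 (SE 0.14, adjusted p = 3.64e-06). The gap of -0.19 (SE 0.14) between small intestine and lung did not pass (adjusted p = 0.254). In contrast to Ass1, Asl was measured lower in kidney than in liver, and the ratio of Ass1 to Asl within a library was 25.7 ± 2.42 (SD, n = 2) in kidney, 8.93 ± 1.96 in liver, 2.94 ± 0.244 in lung and 0.695 ± 0.0522 in small intestine. With the principal transcript as length the ratios were 18.2, 6.34, 2.09 and 0.494, in the same order.

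The sequence of Ass1 has a close copy. Of the 31-base words in its transcripts, 43.1% also occur in other genes, and the gene that shares the largest number of them is the pseudogene Gm5424. In liver Gm5424 was listed at 93.9 and 66.6 FPKM, in kidney at 97.9 and 98.7, in lung at 2.06 and 1.69 and in small intestine at 0.517 and 0.285. It was thus at 8.94% to 15.6% of Ass1 in all 8 libraries. How reads that match both were counted was not given in the sources used here, so the Ass1 level is uncertain by an amount these values do not bound. The sum of both was 1144 and 776 FPKM in liver and 967 and 994 in kidney, which left the order of the tissues as it was for Ass1 alone, with kidney inside the liver range.

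Glul (chromosome 1, 153899944 to 153909723, plus strand), the glutamine synthetase gene, had overlapping levels in 3 tissues and a lower one in small intestine. It was at 40.5 and 75.6 FPKM in liver, 68.4 and 45.4 in lung and 70.2 and 38.3 in kidney, ranges that overlapped, and at 6.27 and 6.88 in small intestine. Liver exceeded small intestine by 2.90 on the log2(FPKM + 1) scale (SE 0.37, limma adjusted p = 4.06e-04) and kidney did so by 2.81 (adjusted p = 5.76e-04), while the small intestine minus lung difference was -2.91 (adjusted p = 3.22e-04). The other 3 comparisons gave 0.09, -0.01 and -0.10, with a SE of 0.37 that leaves them without an order. After median-of-ratios scaling Glul was called higher in liver than in lung, by 1.61 (adjusted p = 0.00282), and reached 0.98 (adjusted p = 0.0291) between kidney and lung. As a ratio, the liver libraries differed more in Glul than in the other members. Of the other genes listed for hepatocytes near the central vein, where Glul is known to be made, Cyp2e1 was at 2138 and 1658 FPKM, Cyp1a2 at 257 and 256 and Oat at 480 and 326 in the same order of libraries, and the summed level of the 6 listed genes, most of it from Cyp2e1, was 2884 and 2247. Slc1a2 was at 7.17 and 5.42, Axin2 at 0.713 and 0.721 and Rhbg, which did not pass the filter on low values, at 0.394 and 0.600. Of these 6 genes 4 had their highest mean in liver, while Axin2 was highest in small intestine and Rhbg in kidney. For 4 genes of hepatocytes near the portal vein the sum was 318 and 320. Their part in the Glul values was not tested. Glul shares 19.7% of its 31-base words with other genes, the largest number with Glns-ps1, which was at most at 1.33 FPKM.

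In each comparison of liver with another tissue, most members were called higher in liver. In liver against kidney 5 of 7 members were called higher (Cps1, Otc, Asl, Nags and Slc25a15), where 6.9% of all genes were, and 0 lower, where 16.2% were. Liver against small intestine gave 5 higher, Cps1, Otc, Ass1, Asl and Glul (background 7.89%), and 0 lower (background 28.3%). Liver against lung gave 6 higher, all but Glul (background 7.21%), and 0 lower (background 55.5%). In kidney against small intestine, 3 members were higher, namely Ass1, Asl and Glul (background 10.7%), and 3 lower, namely Cps1, Otc and Nags (background 18.8%). Kidney against lung gave 3 higher, Ass1, Asl and Slc25a15 (background 8.87%), and 0 lower (background 41.4%). In each of the 4 comparisons with 0 members lower by limma, 0 were lower at an unadjusted p under 0.05, and limma-voom on the recovered reads called 0 lower except in kidney against lung, where it called 2, Otc and Nags. With a pseudocount of 0.1, Otc (-1.39, limma adjusted p = 0.0342) and Nags (-1.10, adjusted p = 0.0494) were called lower in kidney than in lung. Small intestine exceeded lung in 4 members, Cps1, Otc, Nags and Slc25a15 (background 10.1%), and was below it in 2, Ass1 and Glul (background 30.6%).

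The median difference of the 7 members was 1.48 on the log2(FPKM + 1) scale in liver against kidney, where that of all genes tested was -0.27. It was 2.60 against -0.50 for liver and small intestine, 4.01 against -1.13 for liver and lung, -0.80 against -0.18 for kidney and small intestine, -0.10 against -0.81 for kidney and lung, and 3.63 against -0.57 for small intestine and lung. The medians of all genes lay below 0 in every comparison as deposited, farthest in liver against lung, and median-of-ratios scaling brought these medians to between -0.06 and -0.01. Of the 42 comparisons of a member between tissues, 31 were called, and 30 of these kept their call and direction under all 16 alternatives tried. The other was Slc25a15 in liver against kidney. The comparisons share libraries and are not independent of one another. The members, and the pathway lists below, were chosen with earlier results of these data known. Their counts and medians beside those of all genes are therefore descriptions and not a test of the set.

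**Figure D3:**
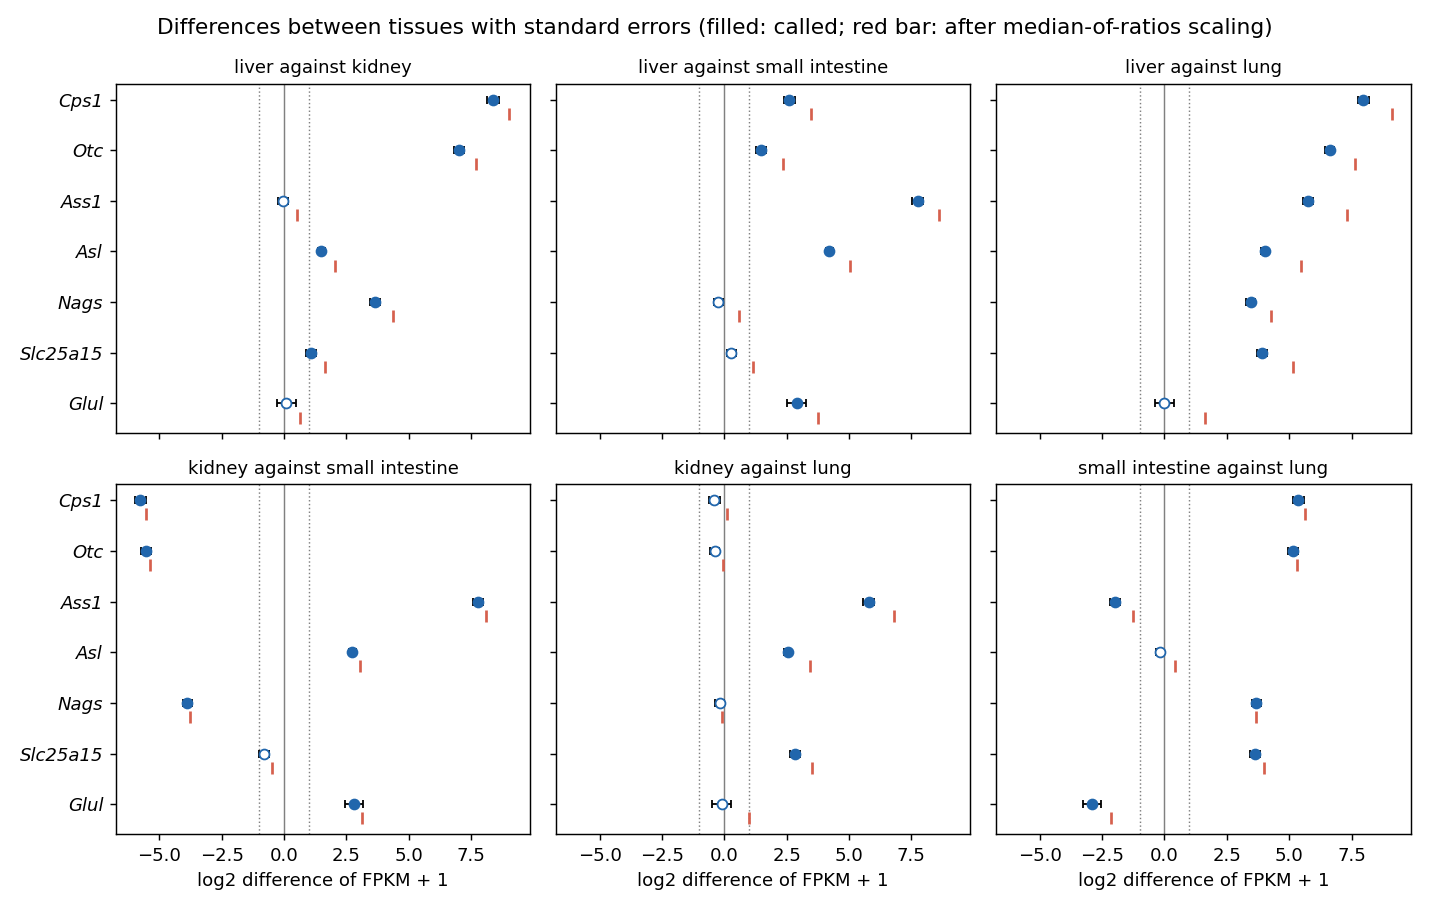
Each panel shows 1 comparison, with the difference of log2(FPKM + 1) of each member as a circle (filled where called) and its standard error as whiskers. Dotted lines mark the threshold of 1 in either direction, and red bars mark the same difference after median-of-ratios scaling, which lies to the right in all comparisons of liver with another tissue, most in liver against lung.

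Cps1, Otc and Nags were at low levels in kidney and lung, and so were hepatocyte markers. In percent of the liver mean, Cps1 was at 0.0375 and 0.179 in the kidney libraries and 0.232 and 0.162 in lung. For Otc the values were 0.0218 and 0.225 in kidney and 0.367 and 0.339 in lung. The median of 6 hepatocyte markers, headed by Alb, the serum albumin gene, was 0.0737 and 0.181 in kidney and 0.238 and 0.128 in lung. Otc was above that median in kidney replicate 2 and in both lung libraries, where it was also above each of the 6 markers. Cps1 was above the median in lung replicate 2 only. Nags, from at most 7 reads, was at 0 and 0.175 in kidney and at 2.17 and 0.487 in lung, above the marker median in both lung libraries. In that median and in all 3 genes kidney replicate 2 exceeded replicate 1 and lung replicate 1 exceeded replicate 2, though Otc differed little between the lung libraries. Summed over the 6 markers the level was 79.9 and 161 FPKM in kidney and 115 and 66.5 in lung, against 53478 and 47605 in liver. Most of the kidney sum was Ttr, the transthyretin gene, at 52.6 and 94.0 FPKM or 1.40% and 2.51% of the liver mean, and Fga was at 0.494% and 0.558% there, both above the marker median. None of the 6 was at 0 in any library. Markers of other organs had the same order of libraries in several lists. The summed level in lung was 15.6 and 3.06 FPKM for 5 enterocyte genes, 8.18 and 3.0 for 5 proximal tubule genes and 5.80 and 1.14 for 8 pancreatic acinar genes. In kidney it was 28.5 and 66.8 for 4 lung epithelial genes and 0.777 and 2.78 for the acinar genes, but 35.5 and 32.1 for the enterocyte genes and 8.59 and 3.46 for 3 intestinal crypt genes. The part of RNA from other organs in these low levels was not tested. In small intestine Cps1 and Otc were at 15.4% to 37.6% of the liver mean, beside a marker median of 0.0433% and 0.0432%.

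**Figure D4:**
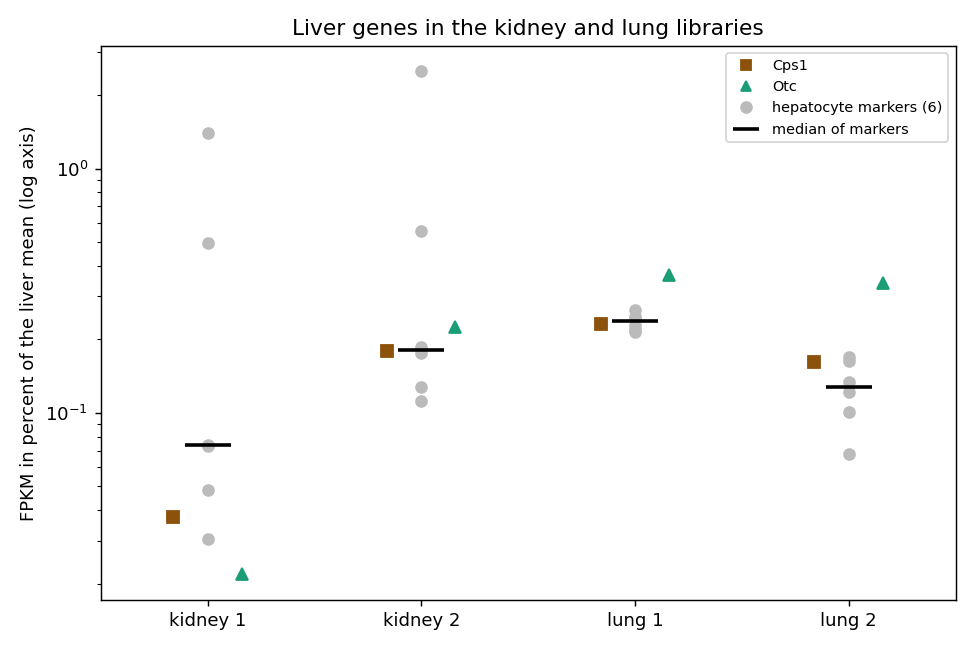
Points show the level of Cps1, Otc and 6 hepatocyte markers in each kidney and lung library as a percentage of the mean liver FPKM (log axis), with a black line at the median of the markers. Cps1 and Otc lie between 0.0218% and 0.367%, beside marker medians of 0.0737% to 0.238%.

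Other genes of nitrogen and arginine metabolism were taken from 5 lists with 50 genes described here, of which 46 passed the filter on low values. The 4 that did not were Nos1, Nos2, Slc14a1 and Rhbg. Over all lists 15 genes were called higher and 15 lower in liver against kidney (backgrounds 6.9% and 16.2%). Liver against small intestine gave 17 and 11 (backgrounds 7.89% and 28.3%) and liver against lung 19 and 14 (backgrounds 7.21% and 55.5%). Kidney against small intestine gave 17 and 8 (backgrounds 10.7% and 18.8%) and kidney against lung 21 and 14 (backgrounds 8.87% and 41.4%). Small intestine against lung gave 11 and 13 (backgrounds 10.1% and 30.6%). Of the 46 genes, the 11 lower in liver against small intestine were a little under the share of all genes. So were the 8 lower in kidney against small intestine and the 13 lower in small intestine against lung. The medians of the listed genes were between -0.28 and 0.37, and those of all genes between -1.13 and -0.18. With median-of-ratios scaling the counts were 23 higher and 6 lower in liver against lung, 24 and 7 in kidney against lung, and 15 and 9 in small intestine against lung. Under that scaling the shares of all genes called higher and lower were 17.9% and 19.4% in liver against lung, 16.8% and 17.3% in kidney against lung, and 15.8% and 15% in small intestine against lung. The 8 genes called lower in kidney against small intestine became 4 without kidney replicate 2, 11 without kidney replicate 1 and 4 under quantile normalization.

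Enzymes that supply citrulline and glutamine nitrogen differed between liver and small intestine in 7 of 9 genes, 5 higher in liver and 2 lower (backgrounds 7.89% and 28.3%), with a median of 1.61 against -0.50 for all genes. Aldh18a1, which makes the precursor of ornithine from glutamate, was at 35.7 and 28.8 FPKM in small intestine, 3.999 and 2.65 in lung and at most 0.666 in liver and kidney. Its liver minus small intestine difference was -4.51 (SE 0.24, limma adjusted p = 3.01e-06). Oat, the ornithine aminotransferase that links this route to ornithine, was at 480 and 326 FPKM in liver and 295 and 354 in small intestine, a difference that did not pass the test (0.29, adjusted p = 0.287), and at 75.9 and 59.1 in kidney, lower than liver by 2.54 (adjusted p = 6.55e-05). The same Oat difference between liver and small intestine was 1.16 (adjusted p = 0.0128) under median-of-ratios scaling. Gls2, which releases ammonia from glutamine in liver, was at 107 and 105 FPKM in liver and at most 0.915 elsewhere, and was higher in liver than in small intestine by 5.85 (adjusted p = 1.75e-07).

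Among mitochondrial suppliers and carriers, 2 of 7 genes were called in liver against small intestine, both of them higher in liver (background 7.89%), with a median of 0.11 on the log2(FPKM + 1) scale, and 2 were higher and 2 lower in liver against kidney (backgrounds 6.9% and 16.2%), with a median of 0.41. The medians of all genes were -0.50 and -0.27 in these comparisons. Car5a, a mitochondrial carbonic anhydrase that provides bicarbonate for carbamoyl phosphate, was at 19.5 and 25.0 FPKM in liver, 1.32 and 1.08 in kidney and 0 in both small intestine libraries, where 3 reads would have given 0.239 and 0.198 FPKM. The small intestine thus held Cps1 with no detectable Car5a at this depth. Car5b, listed beside Car5a, was at 0.185 and 0.139 FPKM there, from 11 and 10 reads, and at 5.64 and 5.84 in kidney. Slc25a13, the aspartate and glutamate carrier that brings aspartate to the cytosol, was at 29.6 and 29.9 FPKM in liver, 21.1 and 15.7 in kidney and 4.53 and 3.60 in small intestine, higher in liver than in small intestine by 2.61 (adjusted p = 2.77e-05). In lung it was at 1.32 and 1.97, the lowest of the tissues. Slc25a22, a glutamate carrier, was at 23.1 and 20.8 FPKM in liver and 17.3 and 30.9 in small intestine, ranges that overlapped.

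Users of arginine and ornithine were called higher in kidney than in liver in 4 of 9 tested genes (background 16.2%) and lower in 2 (background 6.9%), with a liver minus kidney median of -0.67 against -0.27 for all genes. Gatm, which starts creatine synthesis from arginine, was at 286 and 270 FPKM in kidney and at most 4.57 in the other libraries, and the liver minus kidney difference was -5.85 (SE 0.26, limma adjusted p = 1.82e-06). Gamt, which completes creatine, had the opposite order, with 63.7 and 51.6 FPKM in liver and 13.4 and 12.002 in kidney. Odc1, which turns ornithine into putrescine, was at 294 and 283 FPKM in kidney and 23.8 and 17.9 in liver, a difference of -3.74 (adjusted p = 2.02e-06). Agmat was at 86.2 and 96.2 FPKM in liver and 22.9 and 14.4 in small intestine.

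Of 13 transporters tested, 3 were called higher and 7 lower in liver against small intestine (backgrounds 7.89% and 28.3%), with a median of -1.41 against -0.50 for all genes. In liver against kidney 3 were higher and 8 lower (backgrounds 6.9% and 16.2%), with a median of -2.41 against -0.27. Slc7a2, a carrier of cationic amino acids such as arginine, was at 43.3 and 47.9 FPKM in liver and at most 4.83 elsewhere. Slc7a9 and its partner Slc3a1, which take up cystine and cationic amino acids at the luminal membrane, were both high in small intestine and kidney. Slc7a9 was at 68.8 and 88.6 FPKM in small intestine and 47.5 and 38.2 in kidney, while Slc3a1 was at 26.9 and 46.2 in small intestine and 116 and 87.4 in kidney. The ratio of Slc7a9 to Slc3a1 was 2.24 ± 0.452 (SD, n = 2) in small intestine and 0.423 ± 0.0192 in kidney. Slc38a3, a glutamine carrier, was at 232 and 189 FPKM in liver and 9.53 and 8.27 in kidney. Slc14a2, a urea transporter of the renal medulla, was at 14.1 and 7.27 FPKM in kidney, and Rhcg, an ammonia channel of the collecting duct, was at 38.4 and 26.1, while both were at most at 0.151 in the other 6 libraries.

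Of 8 regulators, 4 were called higher and 1 lower in liver against kidney (backgrounds 6.9% and 16.2%), with a median of 0.64 against -0.27 for all genes. The counts were the same against small intestine (backgrounds 7.89% and 28.3%), with a median of 0.88 against -0.50. Gcgr, the glucagon receptor, was at 101.2 and 111 FPKM in liver, 13.8 and 8.82 in kidney and at most 0.611 in small intestine and lung, and was higher in liver than in kidney by 3.15 (SE 0.22, limma adjusted p = 2.22e-05). Cebpa, a transcription factor of hepatocytes and lung epithelium, was at 67.1 and 75.3 FPKM in liver and 40.8 and 48.1 in lung. That difference of 0.67 (adjusted p = 0.00452) stayed under the threshold of 1 and rose to 2.29 (adjusted p = 4.34e-05) after median-of-ratios scaling. Hnf4a, a regulator of hepatocyte, enterocyte and tubule genes, was at 58.7 to 93.8 FPKM in liver, small intestine and kidney and at 0.764 and 0.350 in lung.

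**Figure D5:**
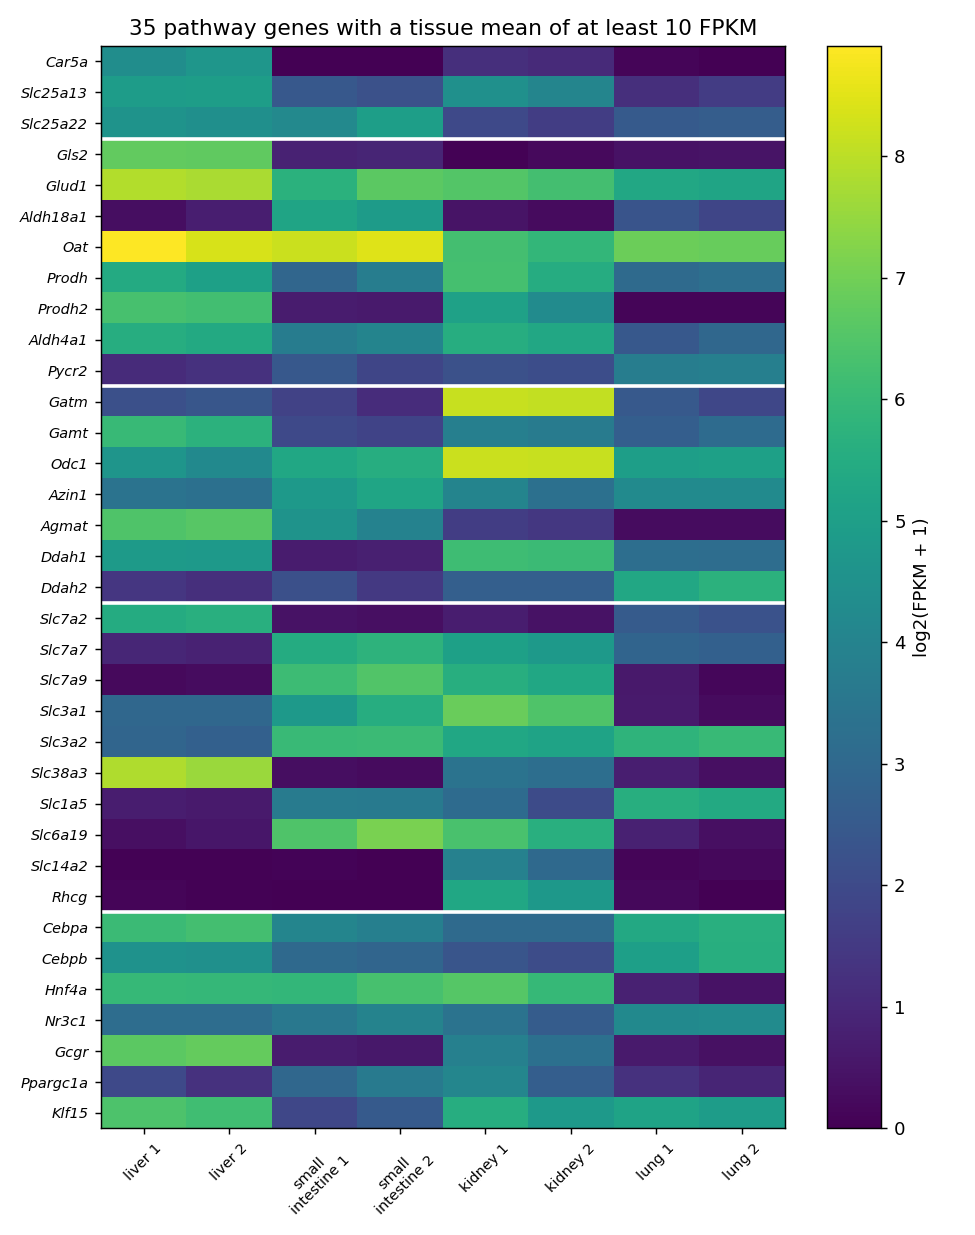
Colours give log2(FPKM + 1) in the 8 libraries (columns) for the 35 listed genes with a mean of at least 10 FPKM in some tissue (rows), with white lines between the 5 lists. Car5a, Gls2, Slc7a2 and Slc38a3 stand out in liver, Aldh18a1 in small intestine, Gatm, Odc1, Slc14a2 and Rhcg in kidney, and Ddah2 and Slc1a5 in lung.

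The genes whose pattern was most like that of each member were found by the root mean square distance between centred log2(FPKM + 1) values over the 8 libraries. Cps1 was nearest to Rdh7, a retinol dehydrogenase, at a distance of 0.19, and then to Otc at 0.58. Otc was nearest to Cyp2c68 at 0.27 and Ugt2a3 at 0.35, genes of drug metabolism with levels in liver and small intestine. Ass1 had no gene closer than 0.64, Acsm1, and Hgd, an enzyme of tyrosine breakdown, lay at 0.70. Asl was nearest to Gstz1 at 0.21, Nags to Apol9a at 0.28, Slc25a15 to Dgat2 at 0.30 and Glul to Gm15883 at 0.34. Among the members themselves Cps1 and Otc were the closest pair, and Ass1 and Asl, which act in sequence, were 1.89 apart. These distances are descriptions over 8 libraries that share their tissue pairs.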

How the data were processed

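Polyadenylated RNA of 4 mouse tissues was sequenced, with 2 libraries for each, and every column of values was assigned by name to the sample of that title. The authors mapped reads to the mouse genome (Ensembl release 75 by the methods, GRCm38) with STAR 2.5.3a under default settings and deposited FPKM values, for which they used the DESeq2 function fpkm. The program that counted reads on genes and its use of strand were not given in the sources used here. GENCODE M21 gave coordinates and exon lengths for 51844 symbols (99.3%). FPKM times exon length gave whole reads, within 0.02, for 94.5% to 96.1% of the low values per library, up to 50 reads.

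The 16328 genes that reached 1 FPKM in at least 2 libraries were tested on log2(FPKM + 1), a scale that understates the change of low genes, with limma 3.58.1 (eBayes with a trend, R 4.3.3) in a single fit of all 8 libraries, for each pair of tissues, with Benjamini-Hochberg adjustment. The step was also run on simulated libraries, in which all tissues had the same mean levels apart from a set of genes changed in liver. These lack the shift of all genes between tissues seen here, so they do not test the calls under it. Tables were handled with pandas 2.3.3 and numpy 2.4.6 under Python 3.11.15, and matplotlib 3.10.9 drew the plots. The members and lists were chosen with earlier results of these data known. Of the 9 members, 2 are not reported here, nor are a listed gene and a gene of like pattern. Genes were named as the other 7 members, listed pathway genes with a mean of 10 FPKM or more in some tissue, and the 3 genes nearest in pattern to each member. Marker genes, Car5b, listed genes that did not pass the filter and genes that share sequence with a member are named beside the results they touch. Alternatives changed the pseudocount, the filter, the scaling, the trend, a replicate block, the lengths and the libraries included. limma-voom on the recovered reads and the principal transcript lengths were chosen after seeing the data.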

Additional observations from a re-analysis of the deposited data

How the results depend on the processing

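Counts of members called higher stayed within 1.5 times of the reported ones under all 16 alternatives, and 30 of 31 called member comparisons held in each. Counts of members called lower, which are small, moved. In liver against kidney the count went from 0 to 1, Ass1, with quantile normalization. In kidney against lung it went from 0 to 2 with a pseudocount of 0.1 or limma-voom on the recovered reads. Pathway genes called lower went from 14 to 6 in liver against lung under median-of-ratios scaling and under quantile normalization, from 14 to 7 and 5 in kidney against lung, and from 8 to 4 in kidney against small intestine under quantile normalization, with 4 (without kidney replicate 2) to 11 (without kidney replicate 1) as libraries were left out. Of all genes, 19.4% and 19.1% were called lower in liver against lung under these scalings, 17.3% and 17.4% in kidney against lung, and 13.5% in kidney against small intestine under quantile normalization, against 55.5%, 41.4% and 18.8% as deposited.

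The direction turned only in comparisons that had not been called. Under median-of-ratios scaling the log2 difference was 0.0925 for Cps1 in kidney against lung, 0.42 for Asl in small intestine against lung, 0.52 for Ass1 in liver against kidney, 0.58 for Nags and 0.76 for Slc25a22 in liver against small intestine, and 1.61 and 0.98 for Glul in liver and kidney against lung. Quantile normalization gave 0.47 for Cps1, 0.23 for Otc, 0.0144 for Nags and 0.35 for Glul in kidney against lung, 0.45 for Asl in small intestine against lung, 0.48 for Glul in liver against lung, and 0.45 for Nags and 0.50 for Slc25a22 in liver against small intestine. With the same sum in each library Ass1 was at 0.15 in liver against kidney and Slc25a22 at 0.0282 in liver against small intestine, and limma-voom put Glul at 0.0271 in liver against lung. With a library left out, Ass1 ranged from -0.31 to 0.25 and Glul from -0.35 to 0.53 in liver against kidney, Glul from -0.45 to 0.43 in liver against lung and from -0.53 to 0.33 in kidney against lung, and Slc25a22 from -0.48 to 0.33 in liver against small intestine. The cause of these changes was not tested.

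Same-numbered libraries of different tissues did not deviate together (correlations of -0.22 to 0.05), and neither the labels nor the methods tie the numbers to a mouse. A replicate block left every member call in place, with Cps1 at 8.37 in liver against kidney. Leaving out a library leaves a tissue with 1, whose spread is then taken from the others. Depth limits Nags in kidney and lung and Otc in kidney, which rest on few reads.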
